A study of Mus musculus with 2 samples.

Results

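The platelet-derived growth factor (PDGF) genes of the mouse, 4 ligand genes (Pdgfa, Pdgfb, Pdgfc and Pdgfd) and 2 receptor genes (Pdgfra and Pdgfrb), were followed across the cell types of the mouse cornea and the limbus, its outer rim. The members were listed by gene symbol, with earlier results of these data known, and are 6 of the 32285 genes counted. All 6 had transcripts in both libraries. The libraries come from 1 wild-type mouse whose eye was injured with sodium hydroxide (NaOH, an alkali burn) and from 1 uninjured wild-type mouse, the control. The study's title names the signalling networks stimulated by such a burn as its subject. Neither the time after injury nor the age or sex of the mice is stated in the labels. Per the labels, lens, retina and iris were removed, most of the conjunctiva was cut away, and the remaining tissue was digested to single cells.

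PDGF ligands are secreted dimers that bind receptor tyrosine kinases on neighbouring cells, mainly of mesenchymal origin, and drive their division and migration. PDGF-A and PDGF-C signal mainly through the alpha receptor (Pdgfra), PDGF-D mainly through the beta receptor (Pdgfrb), and PDGF-B through both; PDGF-C and PDGF-D are secreted as latent forms that extracellular proteases must cut. In blood vessels, PDGF-B from endothelial cells recruits mural cells, the pericytes and smooth muscle cells of the vessel wall, through the beta receptor. In the cornea, PDGF acts on keratocytes, the resident fibroblasts of the stroma.

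Droplet-based 10x Genomics libraries gave 108863350 UMIs (unique molecular identifiers, which count captured transcripts) from 9399 barcodes in the NaOH library and 85457541 UMIs from 7490 barcodes in the uninjured library. After filtering, 8326 NaOH and 6722 uninjured cells remained (median depth 10593 and 10148 UMIs), and 15 barcode sequences occurred in both libraries. Clusters were named by marker genes that include no PDGF member, and the members were kept out of the clustering. The classes held 4622 NaOH and 5733 uninjured epithelial-like cells, 803 and 459 stromal-like, 84 and 58 mural-like, 209 and 43 vascular endothelial-like, 97 and 54 Schwann-like, 344 and 15 macrophage or monocyte-like, and 1017 and 2 neutrophil-like cells. Most NaOH stromal-like cells lay in cluster 12 (800 cells, against 42 uninjured) and most uninjured ones in cluster 1 (417 cells, against 3 NaOH). The epithelial-like clusters were also largely separate, NaOH cells mainly in clusters 15, 16, 11 and 14 and uninjured cells mainly in clusters 3, 6, 5, 9 and 0, so a class value sets different clusters side by side. Cluster 20 (1132 cells, all NaOH) carried epithelial markers with the smooth muscle actin gene Acta2 among its leading genes and stayed unnamed, as did the shallow cluster 4 (355 uninjured cells, median 1241 UMIs). Each group being a single library, the differences below carry no replicate check and were not tested. Levels are in CPM, the usual scaling of a gene's UMIs by the total of its class, and the 95% intervals given beside levels (exact Poisson), ratios (conditional binomial) and shares (Clopper-Pearson) reflect counting error alone.

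The libraries differed in how much of each ligand they held and in which cells held it. Pdgfa made up 55.2 CPM of all analysed NaOH cells and 51.6 CPM of all uninjured cells, Pdgfb 13.8 and 2.41 CPM, Pdgfc 8.92 and 0.689 CPM, and Pdgfd 1.29 and 0.195 CPM. The receptors stood at 41.8 NaOH and 5.53 uninjured CPM for Pdgfra, and at 22.5 NaOH and 6.49 uninjured CPM for Pdgfrb. These whole-library values mix the level in a class with the number of cells of that class, and the 2 cannot be told apart in them. Epithelial-like cells held 55.0% of the Pdgfa UMIs of the NaOH library and 92.4% of those of the uninjured library. For Pdgfb the epithelial-like share was 28.2% in the NaOH library, where vascular endothelial-like cells held 27.5% and the unnamed cells 36.1%. It was 85.9% in the uninjured library, where vascular endothelial-like cells held 9.73%. The NaOH epithelial-like shares leave out the unnamed cluster 20, which carried epithelial markers. It held 948 of the 5310 Pdgfa UMIs and 479 of the 1326 Pdgfb UMIs of the NaOH library. Stromal-like cells held most of the transcripts of the other members, 96.6% NaOH and 85.2% uninjured for Pdgfra, 89.0% and 88.8% for Pdgfrb, 62.2% and 58.5% for Pdgfc, and 58.9% and 73.3% for Pdgfd.

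**Figure D1:**
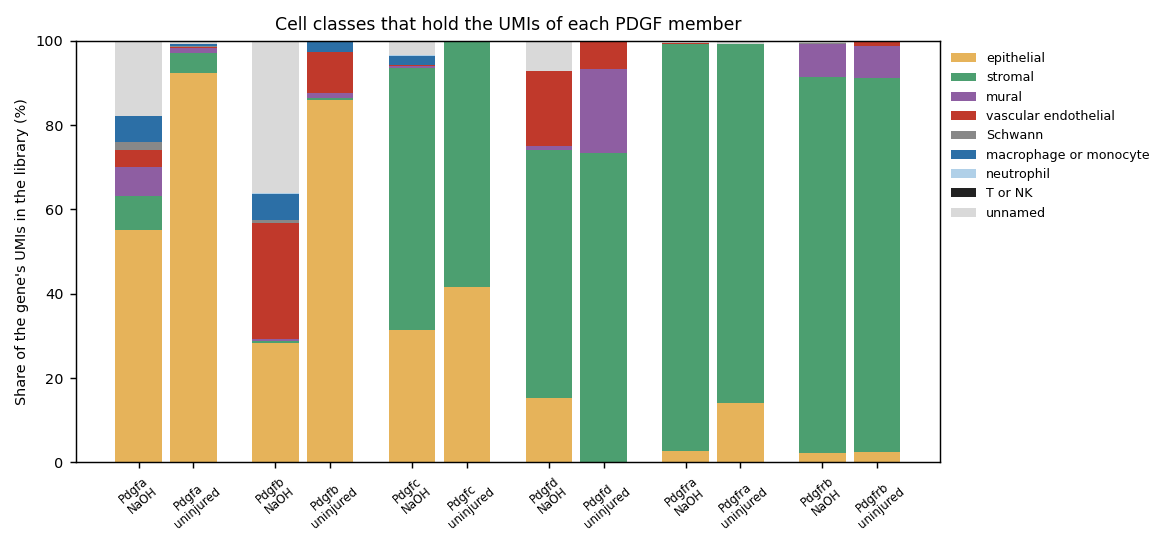
Share of each PDGF member's UMIs (vertical axis, %) that lies in each cell class, with the NaOH bar left of the uninjured bar for each gene. Pdgfa and Pdgfb lay mostly in epithelial-like cells in the uninjured library (92.4% and 85.9%) and were spread over more classes in the NaOH library, while both receptors lay mostly in stromal-like cells in both. The unnamed NaOH cells were mainly cluster 20, which carried epithelial markers.

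In the GENCODE M21 annotation of GRCm38, Pdgfa lies on the minus strand of chromosome 5 (138976014 to 138997370) and Pdgfra on the plus strand of the same chromosome (75152292 to 75198215). Pdgfb lies on chromosome 15 (79995874 to 80014977, minus), Pdgfc on chromosome 3 (81036416 to 81214040, plus) and Pdgfd on chromosome 9 (6168584 to 6378850, plus). Antisense genes overlap exons of 4 members, and the labels do not say whether counting used strand. They were counted far less often than the members, 6330403L08Rik with 135 NaOH and 87 uninjured UMIs against 5310 and 3968 for Pdgfa, Gm42802 (Pdgfra) with 4 and 0, Gm41361 (Pdgfb) with 1 and 0, and Gm16000 (Pdgfc) with none. RefSeq promoter windows on GRCm38.p6, 250 bases before and 50 after the start, were found for 4 of the 6 members, Pdgfa with 2 windows. Those of Pdgfra and Pdgfc, which were both higher in NaOH stromal-like cells, and 1 of Pdgfa, which was lower there, are printed 5′ to 3′ with motif matches in capitals.
Pdgfra, chr5:75152001-75152300, plus: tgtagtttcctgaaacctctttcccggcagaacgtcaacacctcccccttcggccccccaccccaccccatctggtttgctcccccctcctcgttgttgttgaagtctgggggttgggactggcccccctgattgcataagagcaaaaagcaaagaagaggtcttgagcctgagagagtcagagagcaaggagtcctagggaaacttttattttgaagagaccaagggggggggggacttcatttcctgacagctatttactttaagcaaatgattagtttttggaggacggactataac
Pdgfc, chr3:81036166-81036465, plus: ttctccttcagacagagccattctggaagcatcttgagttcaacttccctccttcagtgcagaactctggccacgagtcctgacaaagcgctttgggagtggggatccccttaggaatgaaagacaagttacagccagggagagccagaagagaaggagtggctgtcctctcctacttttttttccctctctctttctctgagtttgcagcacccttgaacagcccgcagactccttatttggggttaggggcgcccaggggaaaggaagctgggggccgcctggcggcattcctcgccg
Pdgfa, chr5:138994895-138995194, minus: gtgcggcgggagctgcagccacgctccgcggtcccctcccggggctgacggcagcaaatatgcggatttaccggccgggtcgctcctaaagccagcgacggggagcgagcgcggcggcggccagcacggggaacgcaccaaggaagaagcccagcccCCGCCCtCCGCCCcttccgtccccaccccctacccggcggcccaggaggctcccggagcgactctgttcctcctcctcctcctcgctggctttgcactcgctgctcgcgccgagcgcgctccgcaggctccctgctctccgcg
The motifs searched on both strands were the AP-1 site TGANTCA, the GC box GGGCGG, the CCAAT box, the TATA box TATAAA and the EGR1 site GCGNGGGCG, held by 7.81%, 35.7%, 37.4%, 13.6% and 5.55% of 32851 RefSeq windows of this length. The windows of Pdgfra and Pdgfc held none of these strings. That of Pdgfa held GGGCGG at 2 places, both on the other strand, and its other window (chr5:138994232-138994531) held it once. The Pdgfd window held TATAAA once. GC content was 51.0% for Pdgfra, 55.0% for Pdgfc and 73.3% for the Pdgfa window shown.

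Pdgfa, the ligand of the alpha receptor, was highest in mural-like cells in both libraries and higher there in the NaOH library. It stood at 589 CPM in NaOH mural-like cells (95% interval 529 to 653, 360 UMIs) and 342 CPM in uninjured mural-like cells (247 to 460, 43 UMIs), a ratio of 1.72 (1.25 to 2.42). The mural class was named by its 10 markers, all of which stood at 50 CPM or more in both libraries. In Schwann-like cells, the glia of the corneal nerves, Pdgfa stood at 257 NaOH and 145 uninjured CPM (90 and 14 UMIs), a ratio of 1.78 with an interval of 1.01 to 3.38. The direction was the opposite in stromal-like cells, 43.4 CPM NaOH (39.4 to 47.6) and 72.0 CPM uninjured (62.0 to 83.1), 1.66-fold lower (1.39 to 1.97). Within stromal cluster 12 Pdgfa stood at 43.4 NaOH and 52.1 uninjured CPM on 440 and 6 UMIs, with a ratio interval that held 1 (0.380 to 2.29). Epithelial-like cells lay close together, 45.0 CPM NaOH and 50.1 CPM uninjured, a ratio of 0.898 (0.855 to 0.943), or a log2 ratio of -0.16, which was 0.00 with every cell thinned to 1000 UMIs. Vascular endothelial-like cells, at 107 NaOH and 78.6 uninjured CPM, and macrophage or monocyte-like cells, at 172 and 214 CPM, had ratios whose intervals held 1 (0.779 to 2.60 and 0.453 to 1.57). The 1017 NaOH neutrophil-like cells had 3 Pdgfa UMIs, 3.20 CPM.

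Among NaOH classes the Pdgfa order was mural-like, Schwann-like, macrophage or monocyte-like, vascular endothelial-like, then epithelial-like and stromal-like, whose intervals overlapped. In the uninjured library the mural-like interval overlapped that of macrophage or monocyte-like cells (111 to 374 CPM) but not that of Schwann-like cells (79.2 to 243 CPM). The vascular endothelial-like interval there (41.8 to 134 CPM) overlapped those of all other compared classes but the mural-like, and stromal-like cells lay above epithelial-like cells. The share of mural-like cells with a Pdgfa UMI was 86.9% NaOH and 41.4% uninjured at median depths of 6021 and 2094 UMIs. With every cell thinned to 1000 UMIs it was 34.6% NaOH (24.3 to 46.0) and 23.6% uninjured (13.2 to 37.0), against 0.295% of NaOH neutrophil-like cells at a median of 852 UMIs. Epithelial markers summed to 1339 CPM in NaOH and 5509 CPM in uninjured mural-like cells (10 and 9 of 11 markers counted, Krt12 at 0 in the NaOH cells, Cdh1 and Krt19 at 0 in the uninjured cells). Pdgfa itself stood at 45.0 and 50.1 CPM in the epithelium, below its level in mural-like cells of both libraries. Stromal markers summed to 11480 CPM in NaOH mural-like cells (10 of 11 counted, Ptgds at 0) and 5628 CPM in uninjured ones (8 of 11, Kera, Fbln1 and Ptgds at 0), and their part in the ratio was not tested. In Schwann-like cells epithelial markers summed to 2994 CPM NaOH (11 of 11) and 16460 CPM uninjured (10 of 11, Krt19 at 0), and their part was not tested either.

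**Figure D2:**
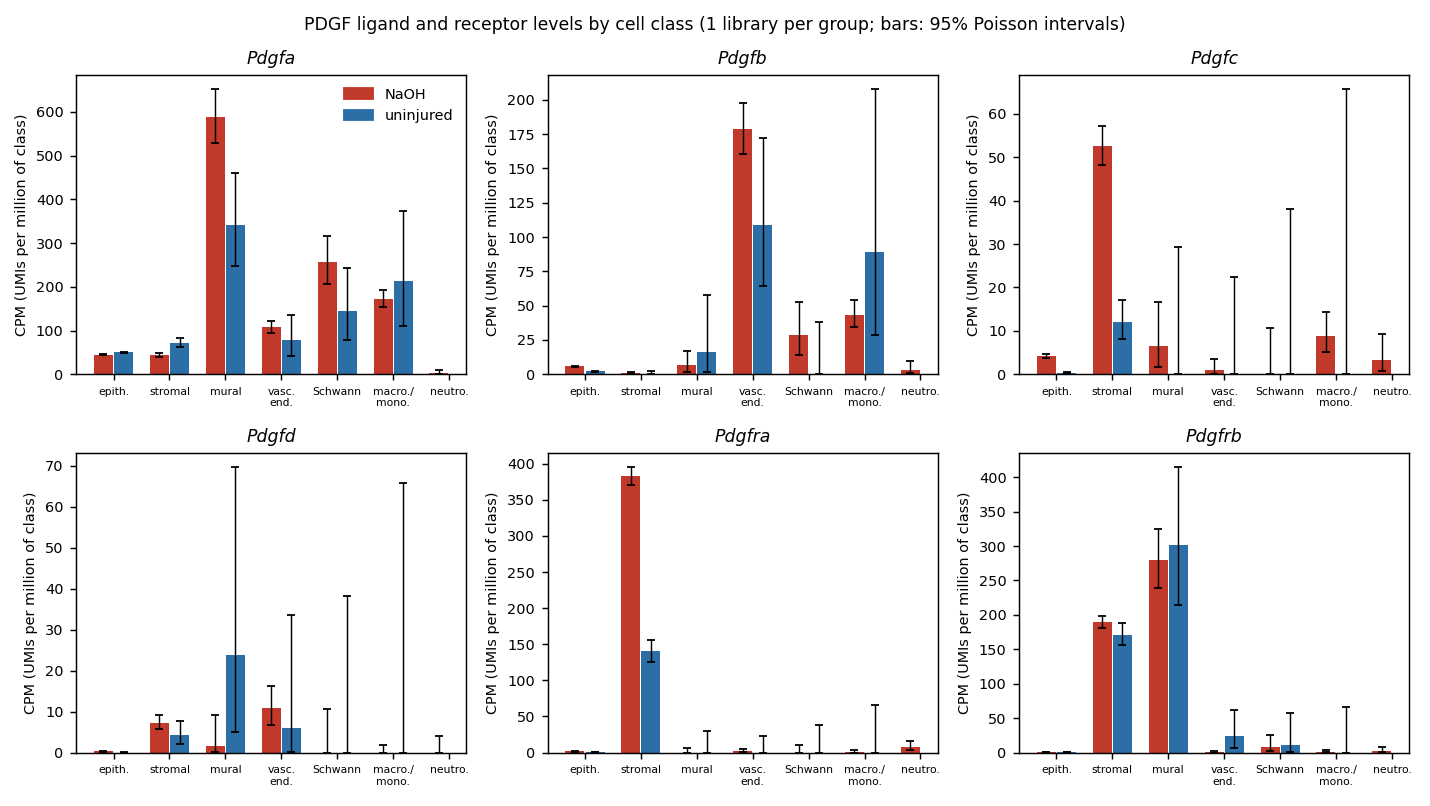
Level of each PDGF member (CPM, vertical axis, own scale per panel) by cell class of at least 10 cells, NaOH left of uninjured, with 95% Poisson intervals. Pdgfa peaked in mural-like cells (589 NaOH, 342 uninjured), Pdgfb in vascular endothelial-like cells (179 NaOH, 109 uninjured), Pdgfra in stromal-like cells (383 NaOH, 140.1 uninjured), and Pdgfrb in mural-like cells followed by stromal-like cells.

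Within the epithelium Pdgfa varied more between clusters than between libraries. Cluster 2, led by Apoe and Id1 and shared by the libraries, stood at 98.6 NaOH and 91.7 uninjured CPM (52 and 285 cells), a ratio of 1.07 (0.760 to 1.49). The lowest clusters of at least 50 cells were cluster 21 in the NaOH library, 9.60 CPM (8 UMIs), and cluster 7 in the uninjured library, 21.3 CPM. Both clusters had Psca and Asprv1, genes of the superficial layers, among their leading genes. Dividing cells, led by histone and mitosis genes, formed clusters 0 and 11. Most uninjured ones lay in cluster 0 (518 cells), at 44.5 CPM (40.1 to 49.2), below the NaOH cells of cluster 11. Cluster 11 itself stood at 59.0 CPM NaOH (710 cells) and 104 CPM uninjured (36 cells), 1.77-fold lower in its NaOH cells (1.37 to 2.25). Cluster 14 was also lower in its NaOH cells, 31.0 CPM against 51.9 CPM in 39 uninjured cells, a ratio of 0.598 (0.394 to 0.939), and cluster 16 stood at 25.1 NaOH and 32.0 uninjured CPM, with an interval that held 1 (0.540 to 1.18).

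Pdgfb, the ligand of both receptors, was highest in vascular endothelial-like cells. There it stood at 179 CPM in the NaOH library (161 to 198, 364 UMIs) and 109 CPM in the uninjured library (64.5 to 172, 18 UMIs), a ratio of 1.64 (1.02 to 2.80). The share of these cells with a UMI was 44.0% NaOH and 27.9% uninjured at median depths of 6773 and 3046 UMIs, or 12.7% and 10.0% when thinned, against 0.996% of NaOH stromal-like cells at 12005 UMIs. All 10 endothelial markers, by which the class was named, stood at 50 CPM or more in both libraries. Epithelial markers (11 of 11 in both) summed to 1108 CPM in the NaOH and 8431 CPM in the uninjured cells of this class, and their part in the ratio was not tested.

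The vascular sub-clusters differed in Pdgfb. It stood at 283 CPM (245 CPM at the lower limit) in NaOH sub-cluster V4, the dividing cells, at 197 CPM in V1, marked by the apelin receptor gene Aplnr, at 140.5 CPM in V7, which carried the arterial genes Gja4 and Gja5, and at 134.5 CPM in V2, which carried the venular genes Selp and Ackr1. The NaOH cells of V6, with the lymphatic genes Lyve1, Ccl21a and Flt4, had 1 Pdgfb UMI in 19 cells (3.97 CPM). Sub-cluster V3, present in both libraries, stood at 41.8 NaOH and 159 uninjured CPM on 5 and 6 UMIs. Most uninjured cells of the class lay in V5, at 98.4 CPM.

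In the epithelium Pdgfb was low and higher in the NaOH library, 5.75 CPM (5.18 to 6.37, 374 UMIs) against 2.17 CPM uninjured (1.85 to 2.54, 159 UMIs), a ratio of 2.65 (2.20 to 3.21). Cluster 20, which has no uninjured cells, stood well above both at 31.4 CPM (28.7 to 34.4, 479 UMIs), with a UMI in 23.3% of its cells. The dividing cluster 11 came next at 13.8 CPM NaOH (164 UMIs), against 4.23 CPM uninjured on 3 UMIs, and NaOH clusters 15 and 16 stood at 5.14 and 2.72 CPM. Endothelial markers summed to 37.9 CPM in NaOH epithelial-like cells (10 of 10 counted) and 2.64 CPM in uninjured ones (9 of 10, Tek at 0), against 4470 and 4261 CPM in the vascular class, and their part in the epithelial ratio was not tested. The 264 cells of cluster 20 with a Pdgfb UMI held the endothelial genes Pecam1 at 0.743 CPM and Cdh5 at 0.248 CPM, against 1.88 and 1.34 CPM in the 868 cells without; the values in the cells with Pdgfb rest on 3 and 1 UMIs. Cells with Pdgfb held 503 CPM of Acta2 against 240 CPM in cells without, and 114 CPM of the activin subunit gene Inhba against 42.2 CPM, while the basal keratin gene Krt14 stood at 8760 and 9180 CPM. The ratio over the epithelium was a log2 value of 1.41, of 2.29 with cluster 20 counted as epithelial, and of 1.02 with each cell weighted alike.

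**Figure D3:**
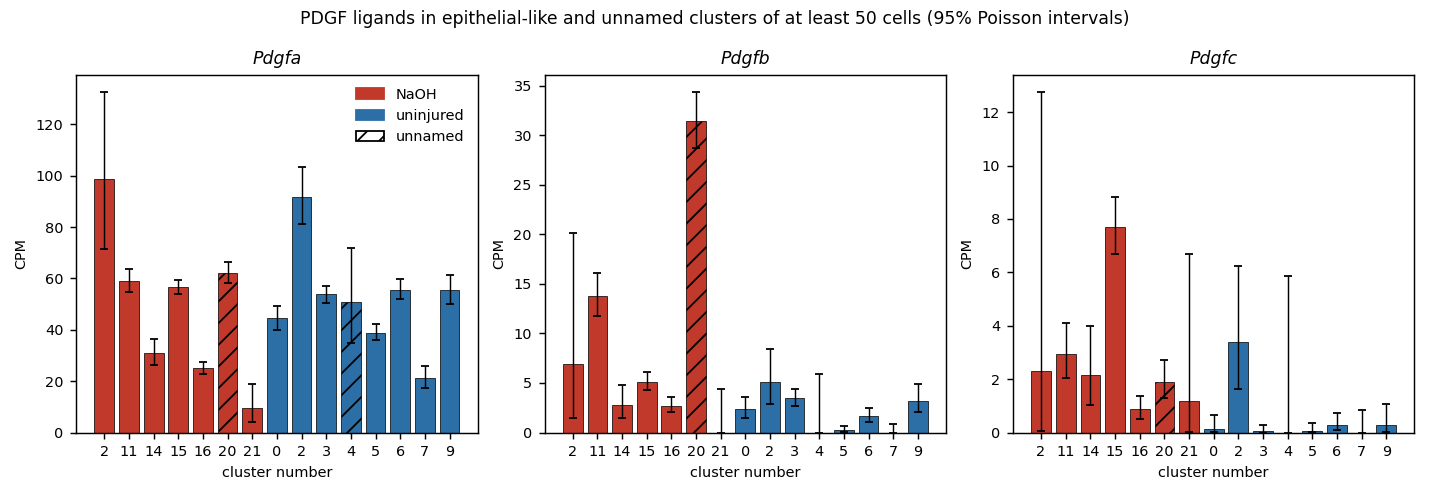
Levels of Pdgfa, Pdgfb and Pdgfc (CPM, vertical axis) in epithelial-like and unnamed clusters (hatched) of at least 50 cells, NaOH clusters left of uninjured clusters, with 95% Poisson intervals. Pdgfb reached 31.4 CPM in cluster 20 and 13.8 CPM in cluster 11, and Pdgfc 7.69 CPM in cluster 15, all NaOH.

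Macrophage or monocyte-like cells also carried Pdgfb, 43.5 CPM NaOH (34.6 to 53.9, 83 UMIs) and 89.1 CPM uninjured (28.9 to 208, 5 UMIs from 15 cells), with a ratio interval of 0.201 to 1.54. Epithelial markers summed to 1499 CPM in NaOH cells of this class (11 of 11) and 7685 CPM in uninjured ones (9 of 11, Krt19 and Krt13 at 0), and their part was not tested. Schwann-like cells had 10 Pdgfb UMIs in the NaOH library and 0 in the uninjured library, where the interval reaches 38.15 CPM. Stromal-like cells had 9 and 1 UMIs and mural-like cells 4 and 2. In the NaOH library the interval of vascular endothelial-like cells lay above that of macrophage or monocyte-like cells, and this above that of epithelial-like cells. The Schwann-like interval (13.7 to 52.6 CPM) overlapped that of the macrophages, and the mural-like interval (1.78 to 16.8 CPM) overlapped those of Schwann-like and epithelial-like cells.

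Pdgfc, a latent ligand of the alpha receptor, was found mainly in stromal-like cells and was higher there in the NaOH library. It stood at 52.6 CPM NaOH (48.3 to 57.3, 534 UMIs) and 12.0 CPM uninjured (8.15 to 17.0, 31 UMIs), a ratio of 4.39 (3.05 to 6.52). A UMI was seen in 45.5% of NaOH and 5.66% of uninjured stromal-like cells at median depths of 12005 and 5715 UMIs, or in 5.63% and 0.887% when thinned, against 0.957% of NaOH vascular endothelial-like cells at 6773 UMIs. Of the 31 uninjured UMIs, 11 came from the 25 uninjured cells of sub-cluster S9, marked by Igfbp6, Myoc, Comp and Chad. In S9, which the libraries shared, Pdgfc stood at 199 CPM NaOH (124 to 301) and 141 CPM uninjured (70.6 to 253). Without S9 the log2 ratio of the class was 2.68, against 2.13 with it. S9 made up most uninjured cells of cluster 12, and within that cluster alone Pdgfc was lower in the NaOH cells, 52.6 against 104 CPM in uninjured cells, 1.98-fold (1.02 to 3.49, 533 and 12 UMIs).

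The epithelium held more Pdgfc in the NaOH library, 4.15 CPM (3.67 to 4.68, 270 UMIs) against 0.300 CPM in the uninjured library (0.188 to 0.455, 22 UMIs), a ratio of 13.8 (8.95 to 22.4). Cluster 15, led by the limbal gene Gpha2, held 205 of the 270 NaOH UMIs, at 7.69 CPM. Within clusters that held cells of both libraries the direction varied, on few UMIs. Cluster 2 held 1 NaOH UMI, at 2.29 CPM, and 10 of the 22 uninjured UMIs, at 3.40 CPM. Cluster 14 stood at 2.17 NaOH and 3.84 uninjured CPM (10 and 2 UMIs), and cluster 11 at 2.94 and 1.41 CPM (35 and 1 UMIs). The 10 uninjured cells of cluster 15 and the 35 of cluster 16 had no Pdgfc UMI. Transcripts of the stromal gene Dcn (decorin) were counted in the epithelium of both libraries, at 60.9 NaOH and 41.9 uninjured CPM. Per 1000 Dcn UMIs the NaOH epithelium held 68.2 Pdgfc UMIs (60.3 to 76.8), against 3.25 (2.98 to 3.53) in the NaOH stroma. NaOH epithelial-like cells with a Pdgfc UMI held 83.1 CPM of Dcn, against 59.7 CPM in those without, and 53.3 against 44.1 CPM of Col1a1; the part of stromal transcripts in the epithelial ratio was not tested. The 11 stromal markers summed to 345 CPM in NaOH and 107 CPM in uninjured epithelial-like cells, with Ptgds at 0 in both. Macrophage or monocyte-like cells had 17 Pdgfc UMIs NaOH (8.90 CPM) and 0 uninjured, where the interval reaches 65.8 CPM. Schwann-like cells had none in either library.

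Pdgfd, the latent ligand of the beta receptor, was the least counted member, with 124 NaOH and 15 uninjured UMIs in all. Stromal-like cells held 73 and 11 of them, 7.20 CPM NaOH (5.64 to 9.05) and 4.26 CPM uninjured (2.12 to 7.62), and the interval of the ratio of 1.69 held 1 (0.891 to 3.54). With cells thinned to 1000 UMIs its log2 ratio was -0.09, against 0.76, and a difference was not detectable at this depth. The 25 NaOH and 25 uninjured cells of S9 again stood highest, at 36.1 and 38.6 CPM, on 4 and 3 UMIs. Vascular endothelial-like cells had 22 and 1 UMIs, epithelial-like cells 19 and 0, mural-like cells 1 and 3, and Schwann-like and macrophage or monocyte-like cells none.

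Pdgfra, the alpha receptor gene, was close to restricted to stromal-like cells by its counts and was higher there in the NaOH library. It stood at 383 CPM NaOH (371 to 395, 3888 UMIs) and 140.1 CPM uninjured (126 to 155, 362 UMIs), a ratio of 2.74 (2.46 to 3.06). The class was named by its 11 markers, of which 10 stood at 50 CPM or more in both libraries, with Ptgds at 0. A UMI was seen in 88.8% of NaOH and 47.5% of uninjured stromal-like cells, or in 29.7% (26.5 to 33.0) and 13.5% (10.5 to 17.0) after thinning, against 0.291% of NaOH macrophage or monocyte-like cells at a median of 4629 UMIs. Within cluster 12 the ratio was 4.01 (2.24 to 8.05), at 383 NaOH and 95.5 uninjured CPM on 3883 and 11 UMIs. Sub-cluster S9, which made up most uninjured cells of this cluster, stood at 63.2 NaOH and 25.7 uninjured CPM (7 and 2 UMIs). The part of S9 in the cluster 12 ratio was not tested. Epithelial markers summed to 1347 CPM in NaOH and 5590 CPM in uninjured stromal-like cells (11 of 11 in both), and their part in the stromal ratios was not tested. No Pdgfra UMI was found in mural-like or Schwann-like cells of either library. The intervals of these 0 counts reach 6.03 NaOH and 29.3 uninjured CPM in mural-like cells, and 10.55 and 38.15 CPM in Schwann-like cells. The epithelium held 108 NaOH and 60 uninjured Pdgfra UMIs, 1.66 and 0.819 CPM. Per 1000 Dcn UMIs this was 27.3 (22.4 to 32.9) in the NaOH epithelium, near the 23.6 (22.9 to 24.4) of the NaOH stroma, and 19.6 (14.9 to 25.2) in the uninjured epithelium, above the 2.99 (2.69 to 3.32) of the uninjured stroma. NaOH epithelial-like cells with a Pdgfra UMI held 234 CPM of Dcn against 54.9 CPM in those without. The part of stromal transcripts in these epithelial Pdgfra counts was not tested.

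Pdgfrb, the beta receptor gene (chromosome 18, 61045150 to 61085061, plus strand), was highest in mural-like cells, followed by stromal-like cells, and lay close together between the libraries in both. Mural-like cells stood at 279.6 CPM NaOH (239 to 325, 171 UMIs) and 302 CPM uninjured (214 to 415, 38 UMIs), a ratio of 0.926 (0.648 to 1.35). Stromal-like cells stood at 189.7 CPM NaOH (181 to 198, 1925 UMIs) and 171 CPM uninjured (156 to 188, 443 UMIs), a ratio of 1.11 (0.998 to 1.23). The mural interval reaches from 1.54-fold lower to 1.35-fold higher in the NaOH library, and the stromal interval ends at 1.23-fold higher. With stromal-like cells thinned to 1000 UMIs the log2 ratio was 0.63, against 0.15, with a UMI in 18.9% of NaOH and 13.5% of uninjured cells. In neither library did the mural-like and stromal-like intervals overlap. A UMI was seen in 69.0% of NaOH and 51.7% of uninjured mural-like cells, or in 28.4% NaOH and 11 of 55 uninjured cells after thinning, against 0.581% of NaOH macrophage or monocyte-like cells. The epithelium had 50 NaOH and 12 uninjured UMIs, and per 1000 Dcn UMIs its 12.6 (9.37 to 16.7) NaOH and 3.91 (2.02 to 6.83) uninjured lay near the 11.7 and 3.66 of the stroma of the same library. Dcn itself differed between the libraries, at 16210 NaOH and 46810 uninjured CPM in the stroma. The part of stromal transcripts in the epithelial counts was not tested. Vascular endothelial-like cells had 1 NaOH and 4 uninjured UMIs, and the 4 came from 2 cells of V5, a sub-cluster with the mural gene Rgs5 among its leading genes.

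**Figure D4:**
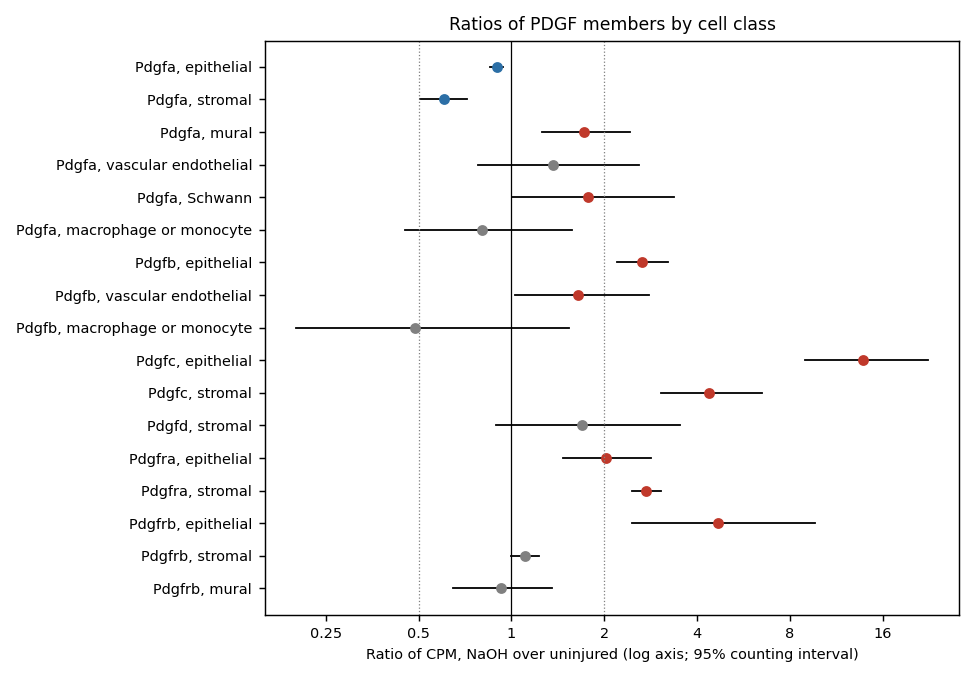
Ratio of CPM, NaOH over uninjured (log axis), for the 17 member and class pairs with at least 20 UMIs in all and at least 3 in each library, with 95% counting intervals. Intervals lay above 1 for 9 pairs (red), below 1 for 2 (blue, Pdgfa in epithelial-like and stromal-like cells) and held 1 for 6 (grey).

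Read against all genes, stromal-like cells had 5 members with at least 20 UMIs, of which 2 (Pdgfc and Pdgfra) were at least 2-fold higher in the NaOH library and 0 at least 2-fold lower; among 11970 genes, 11.1% were that much higher and 10.0% that much lower. Their median log2 ratio was 0.76, against 0.01 over all genes of the class. Of 5 such members in epithelial-like cells, 4 were at least 2-fold higher (Pdgfb, Pdgfc, Pdgfra and Pdgfrb) and 0 lower, against 13.2% and 11.5% of 14475 genes, and 2 of the 4 are the receptors, counted there beside the stromal transcripts given above, whose part in these ratios was not tested. Of these, the Pdgfra call sat at the threshold: its log2 ratio of 1.02 was 0.91 with each cell weighted alike and ranged from 0.91 to 1.84 over the alternatives, so that the 2-fold call was lost under several of them. In mural-like cells neither Pdgfa nor Pdgfrb passed 2-fold in either direction, against 13.4% higher and 10.5% lower of 4494 genes. In vascular endothelial-like cells none of Pdgfa, Pdgfb and Pdgfd did, against 9.57% higher and 9.61% lower of 7969 genes. The median over all mural genes was 0.23 on the log2 scale, against 0.78 for Pdgfa and -0.11 for Pdgfrb, and the other medians were 0.01 or less.

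The receptors and the alpha receptor ligands of the stroma stood in different proportions in the libraries. Pdgfra made up 66.9% (65.7 to 68.1) of the Pdgfra and Pdgfrb UMIs of NaOH stromal-like cells and 45.0% (41.5 to 48.5) in uninjured ones. Pdgfc made up 54.8% (51.6 to 58.0) of the Pdgfc and Pdgfa UMIs in NaOH and 14.3% (9.92 to 19.7) in uninjured stromal-like cells. These shares compare libraries and say nothing of which gene has the higher level, since capture can differ between genes. In vascular endothelial-like cells Pdgfb made up 62.5% NaOH (58.5 to 66.5) and 58.1% uninjured (39.1 to 75.5) of the Pdgfb and Pdgfa UMIs, with overlapping intervals. Both receptors were counted in the same cell in 74.3% of NaOH and 29.4% of uninjured stromal-like cells, or in 57 of 799 NaOH cells (7.13%, 5.45 to 9.14) and 9 of 451 uninjured cells (0.917 to 3.75%) after thinning. If the receptors were counted independently, their single shares would give 71.2% NaOH and 26.2% uninjured, or 5.61% and 1.83% after thinning. Each of these lay inside the counting interval of the counted share.

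The stromal sub-clusters spread Pdgfra widely and Pdgfrb little. Among NaOH sub-clusters Pdgfra was highest in S3, led by the acute-phase gene Saa3 (497 CPM, 467 CPM at the lower limit), in S2, led by Chil1 (471 CPM), and in S8, led by Cxcl14 and Wif1 (419.9 CPM). It was lower in S5, which carried the myofibroblast gene Acta2 (273 CPM), in the dividing S10 (235.5 CPM) and in S9 (63.2 CPM, 7 UMIs). The uninjured sub-clusters S1, led by the keratocyte gene Kera, and S4 stood at 149 and 126.5 CPM, below each NaOH sub-cluster other than S9. Pdgfrb ranged from 131 to 232 CPM over NaOH sub-clusters, with 172 CPM in S1 and 183 CPM in S4. Pdgfc stood at 13.4 CPM in S11, which also carried the epithelial gene Krt14, at 40.0 to 64.1 CPM in the other NaOH sub-clusters apart from S9, and at 5.42 and 14.0 CPM in S1 and S4. Pdgfa ranged from 11.4 CPM in S8 to 99.3 CPM in S9 among NaOH cells, with 75.4 CPM in S1 and 64.0 CPM in S4.

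**Figure D5:**
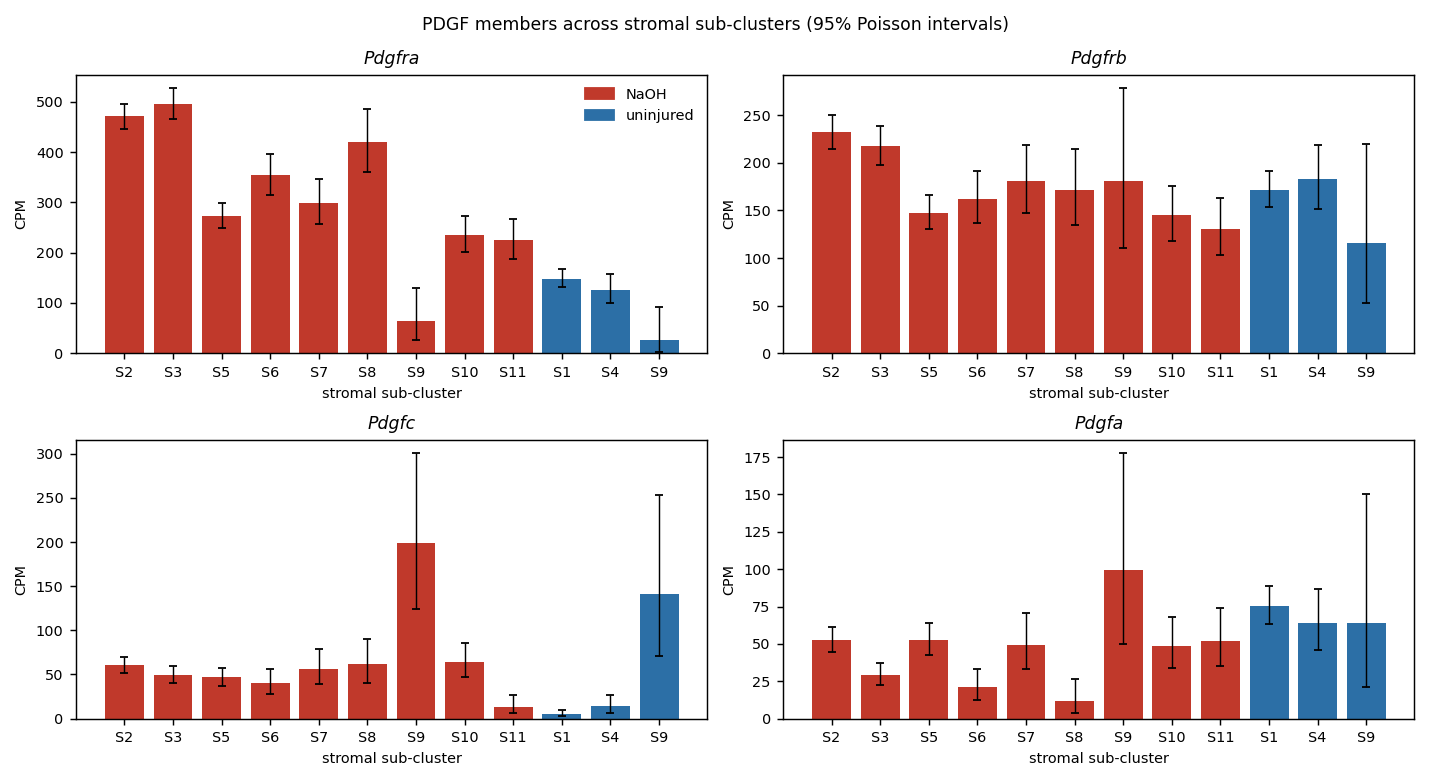
Levels of Pdgfra, Pdgfrb, Pdgfc and Pdgfa (CPM, vertical axis) in stromal sub-clusters of at least 10 cells in a library, NaOH left of uninjured, with 95% Poisson intervals. Pdgfra was above 149 CPM in the 8 NaOH sub-clusters other than S9, and Pdgfc was highest in S9 in both libraries (199 NaOH, 141 uninjured).

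Genes that process, bind, relay or damp PDGF signals were followed in 5 lists. Of the 7 ligand-processing proteases 4 were at least 2-fold higher and 0 lower in NaOH stromal-like cells, with a median log2 ratio of 1.46; over all genes of the class 11.1% were that much higher and 10.0% lower, with a median of 0.01. Plat, the tissue plasminogen activator that cuts latent PDGF-C, stood at 129 NaOH and 32.1 uninjured CPM there, 4.02-fold higher (3.22 to 5.08), and at 144 and 31.8 CPM in mural-like cells, on 88 and 4 UMIs. Pcsk5, a proprotein convertase, was 5.18-fold higher (3.63 to 7.64) in the stroma. Plau, the urokinase that cuts PDGF-D, had 40 NaOH UMIs and 0 uninjured UMIs in mural-like cells. With the uninjured count set to 3 it was 2.74-fold higher, and the interval began at 2.13-fold. In mural-like cells 2 of 3 measured proteases were at least 2-fold higher and 0 lower, against 13.4% and 10.5% of all genes. None of 7 proteases in epithelial-like cells passed 2-fold, against 13.2% higher and 11.5% lower of all genes. None of 5 in vascular endothelial-like cells did, against 9.57% higher and 9.61% lower of all genes. Furin, the convertase of PDGF-A and PDGF-B, stood at 57.4 NaOH and 36.3 uninjured CPM in the vascular class.

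Co-receptors and ligand-binding proteins had 2 of 7 members at least 2-fold higher in stromal-like cells, where 11.1% of all genes were that much higher and 10.0% lower. They were Hspg2 (perlecan), 105 NaOH and 32.5 uninjured CPM, and Thbs1 (thrombospondin 1), 788 and 344 CPM. Sparc, a matrix protein that binds PDGF-B, was 3.32-fold higher (2.86 to 3.89) in vascular endothelial-like cells, 3495 NaOH and 1052 uninjured CPM, and 2.01-fold higher (1.93 to 2.10) in epithelial-like cells. In stromal-like cells, where its level was higher than in these classes, it stood at 10260 NaOH and 15860 uninjured CPM, 1.55-fold lower (1.53 to 1.56). In mural-like cells the pericyte proteoglycan gene Cspg4 stood at 106 NaOH and 47.7 uninjured CPM, with an interval that held 1 (0.970 to 6.29), and the endocytic receptor Lrp1 was 2.29-fold lower (1.18 to 4.26). The adaptors and signalling enzymes of the receptors had 1 of 16 at least 2-fold higher and 0 lower in stromal-like and in epithelial-like cells, with medians of 0.20 and -0.04; in epithelial-like cells 13.2% of all genes were that much higher and 11.5% lower. In mural-like cells 1 of 8 was higher and 1 lower, against 13.4% and 10.5% of all genes. Fyn, a Src-family kinase, stood there at 75.2 NaOH and 23.9 uninjured CPM (46 and 3 UMIs), and Pik3ca, a catalytic subunit of phosphoinositide 3-kinase, at 21.3 NaOH and 95.4 uninjured CPM (13 and 12 UMIs), 4.49-fold lower (1.87 to 10.7). Attenuators of the receptors had 2 of 10 higher and 1 lower in stromal-like cells, median 0.38. The higher ones were Spry2, a Sprouty inhibitor of the kinase cascade, at 27.7 NaOH and 10.1 uninjured CPM (2.75-fold, 1.84 to 4.29) and the phosphatase Ptpn1 at 121 NaOH and 46.4 uninjured CPM (2.60-fold, 2.16 to 3.17), and the lower one was Spry4, at 19.8 NaOH and 40.6 uninjured CPM (2.05-fold, 1.60 to 2.61). Spry2 and Spry4 were named after their values were seen. In vascular endothelial-like cells 2 of 9 were lower, where 9.61% of all genes were, Dusp6 and Spry1, which damp the kinase cascade below the receptors, 2.17-fold (1.53 to 3.01) and 2.23-fold (1.29 to 3.66).

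By their medians, genes that PDGF is known to induce in fibroblasts went in different directions by class. Single genes did not always. Ccl2 was higher, and Fos, Ier2 and Egr1 were lower, in the NaOH cells of each class given here. These genes were named across classes after their values were seen. In stromal-like cells 6 of 12 were at least 2-fold higher and 2 lower, against 11.1% and 10.0% of all genes, with a median of 1.09 against 0.01. The chemokine gene Ccl2 stood there at 1280 NaOH and 89.8 uninjured CPM, 14.3-fold higher (12.5 to 16.3). The 2 lower ones were Fos, 2.39-fold (2.34 to 2.45), and Ier2, 2.36-fold (2.24 to 2.48). In mural-like cells 1 of 11 was higher, Ccl2 at 3.05-fold (2.52 to 3.72), and 5 lower, against 13.4% and 10.5% of all genes, with a median of -0.70 against 0.23, and with Egr1, an immediate early transcription factor, at 492 NaOH and 1471 uninjured CPM and Ier2 at 335 and 763 CPM. In vascular endothelial-like cells 1 of 11 was higher and 6 were lower, against 9.57% and 9.61% of all genes. The median was -1.28 against 0.00. Among the lower ones were Egr1, 4.69-fold (3.92 to 5.59), and Myc, 3.79-fold (2.59 to 5.44). Ccl2 had 257 NaOH UMIs and 0 uninjured UMIs there, 6.95-fold higher with the uninjured count set to 3 (5.61 at the lower limit). In epithelial-like cells 2 of 12 were higher and 3 lower, against 13.2% and 11.5% of all genes, with Fos at 661 NaOH and 2369 uninjured CPM. PDGF is 1 of many stimuli known to induce these genes.

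Over the 12 profiles of class and library with at least 30 cells, the genes most like each member were named by the Pearson correlation of log2(CPM + 1). For Pdgfra they were Wif1 (0.995), Rxfp1 (0.990) and Itgbl1 (0.979), each highest in NaOH stromal-like cells, and for Pdgfrb C1qtnf7 (0.973), Nnmt (0.968) and C1s1 (0.964), each highest in stromal-like cells. For Pdgfa they were Ciao2b (0.921), Crip1 (0.920) and Ptms (0.916), each highest in NaOH mural-like cells, and for Pdgfb Pcbp2 (0.953), Ubtd1 (0.933) and Pcbp1 (0.909), each highest in NaOH vascular endothelial-like cells. Pdgfc was most like Cxcl5 (0.901), Cpxm1 (0.894) and Ccn5 (0.892), and Pdgfd most like Snai1 (0.896) and Tmem204 (0.888). The profiles share 2 libraries, their depth and free RNA, so these values describe the likeness of 12 points only.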

How the data were processed

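The authors deposited raw UMI counts per gene and barcode. Per the file headers these came from Cell Ranger 7.0.1, and the submitters' processing notes name the build GRCm38. The PDGF members, the 5 pathway lists (52 genes) and the rules were chosen with earlier results of these data known.

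Barcodes were required to have 300 or more genes, 500 or more UMIs and no more than 20% mitochondrial UMIs, which left 9003 NaOH and 7150 uninjured barcodes. The automatic Scrublet threshold marked 2 and 32 cells (0.0222% and 0.448%), too few for a working caller, and the highest-scoring 7.52% and 5.99% (677 and 428 cells) were removed, an assumed 0.8% per 1000 barcodes. Cells of both libraries were clustered together in scanpy 1.11.5 (2000 variable genes without the members, 30 principal components, 20 neighbours, Leiden resolution 1, no batch correction). Classes were named where at least 3 markers were detected. A cluster stayed unnamed where another class had more markers among its 10 leading genes than its best class, as in cluster 20. A shallow cluster without any marker of its best class among them also stayed unnamed, as cluster 4 did. Classes were clustered again with 20 components; the sub-clusters' leading genes were read after their values were seen.

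Class sums of each library, divided by their total, gave CPM. Genes with at least 20 UMIs in a class over both libraries were counted where they differed at least 2-fold; for this the smaller count was set to 3 where it was below, and a gene whose direction this turned got none. Intervals are exact at 95% (scipy 1.17.1). The calling was tried on simulated counts. Beside the 6 members, list genes are named where they are among the 3 with the largest log2 ratio of their list in a class and reach 50 CPM, and like genes are the 3 with the highest correlation among genes of at least 50 CPM, leaving out mitochondrial, ribosomal, hemoglobin, predicted and sex-linked genes (read as Y-linked and X-inactivation genes); 1 gene that the rule picked is not reported here. Nothing was tested, with a single library in each group.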

Additional observations from a re-analysis of the deposited data

Results flagged for a closer look

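Pdgfa differed in direction between cell classes. Its log2 ratio, NaOH over uninjured, was 0.78 in mural-like cells and 0.83 in Schwann-like cells, and -0.73 in stromal-like cells and -0.16 in epithelial-like cells, each with a counting interval that did not hold 0. The difference between the classes was not tested, since each group has 1 library. With cells thinned to 1000 UMIs the epithelial value was 0.00.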

How the results depend on the processing

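No paired analysis was possible because each group has 1 library, and leaving out a replicate was not possible for the same reason. Of 163 values of the 17 member ratios under other clustering, filters, doublet handling, scaling, weighting and thinning, 150 stayed within the counting interval of the ratio as given, 13 left it, and no ratio whose interval left out 1 turned round. In stromal-like cells the log2 ratio ranged from 1.39 to 1.53 for Pdgfra, 1.76 to 2.68 for Pdgfc and -0.09 to 1.11 for Pdgfd, and it ranged from 0.58 to 0.89 for Pdgfa in mural-like cells and 0.13 to 0.75 for Pdgfb in vascular endothelial-like cells. In epithelial-like cells it ranged from 1.02 to 2.29 for Pdgfb, 1.00 to 3.01 for Pdgfrb and 0.91 to 1.84 for Pdgfra, and the cause was not tested. The alternatives that count cluster 20 as epithelial and that leave out S9 were chosen after seeing the data. Counts of genes past 2-fold depended on the minimum of UMIs by construction, since fewer or more genes enter. With at least 100 UMIs the higher and lower genes numbered 780 and 541 in stromal-like (1327 and 1200 with 20), 165 and 131 in mural-like (604 and 470) and 1184 and 1104 in epithelial-like cells (1912 and 1658), and 249 were lower in vascular endothelial-like cells (766). With at least 1 UMI, 1070 were lower in mural-like and 1552 in vascular endothelial-like cells. Depth limits the uninjured mural-like, vascular endothelial-like, Schwann-like and macrophage or monocyte-like cells most. There the interval of a count of 0 ends between 22.3 and 65.8 CPM.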

Other observations

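The macrophage or monocyte-like cells of the NaOH library varied in their PDGF ligands. Sub-cluster P7 (26 cells, led by Chil3) stood at 429 CPM of Pdgfa (321 CPM at the lower limit, 52 UMIs) and 140.4 CPM of Pdgfb (81.8 CPM at the lower limit, 17 UMIs). Both ligands were among the leading genes of P7, so it is singled out here after its values were seen and those levels are a description. The other NaOH sub-clusters ranged from 29.3 CPM of Pdgfa in P4, which carried the antigen presentation genes H2-Aa, H2-Ab1 and H2-Eb1, to 253 CPM in P5, led by Mmp8. P1, which carried Arg1 and Ccl24, stood at 186 CPM of Pdgfa and 10.2 CPM of Pdgfb, and P6, which carried the osteoclast genes Ctsk and Acp5, at 105 and 58.0 CPM. Of 7 platelet markers, 3 were counted in NaOH and 1 in uninjured macrophage or monocyte-like cells, summing to 8251 and 2389 CPM. In both libraries 1 of them, Pf4, which macrophages are also known to express, was above 50 CPM; it stood at 18360 CPM in P1, where Itga2b and Gp9 were at 0. Gp9, Gp1bb, Gp1ba and Tubb1 were at 0 in both.

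In NaOH mural-like sub-clusters of at least 10 cells Pdgfa stood at 448.5 CPM in M2, which carried Ccl19 and Cxcl9, 661 CPM in M3, which carried Il11, and 589.9 CPM in the dividing M5. The uninjured sub-clusters M1 and M4, of 40 and 14 cells, stood at 346 and 375.5 CPM. Pdgfrb ranged from 265 to 289 CPM over the 3 NaOH sub-clusters and stood at 322 and 260.0 CPM in M1 and M4.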
